A study of Mus musculus with 8 samples.

Results

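Type 2 cytokines and their receptors were examined in dorsal skin of Balb/c mice as a group of 10 genes: the cytokines Il4, Il13 and Tslp, the receptor chains Il4ra, Il13ra1, Il13ra2, Il2rg, Il7r and Osmr, and the response gene Retnla. The members were chosen by gene symbol, and every probe set that the platform annotation pairs with one of these symbols was taken, whatever its signal. Of the 10 genes, 9 had a probe set listed, and they were represented by 18 of the 45101 probe sets in the table. Il2rg, the common gamma chain, was not listed and is not analysed here. The study used 8 Affymetrix arrays, 1 per skin sample, in a model of atopic dermatitis. Sham skin (n = 2) is described in the sample titles and source names as having had neither DNCB nor HY209. DNCB skin (n = 3) had 1-chloro-2,4-dinitrobenzene, a contact sensitizer, over 15 days, with vehicle in the last 7 days. DNCB+HY209 skin (n = 3) had the same DNCB course, with a gel of 5% HY209 in those last 7 days. HY209 is a code-named compound known as a GPCR19 agonist, GPCR19 being a receptor for bile acids. The protocol fields of the sham samples carry the DNCB text, so sham status rests on the titles and source names. Age and sex were not given in the sources used here, and no allele or transgene was named.

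Interleukin-4 and interleukin-13 are made mainly by T helper 2 cells, innate lymphoid cells, basophils and mast cells, and both signal through a receptor of the chains IL-4Ra and IL-13Ra1 that activates the transcription factor STAT6. Thymic stromal lymphopoietin, encoded by Tslp, is an alarmin of keratinocytes that signals through IL-7Ra paired with the chain encoded by Crlf2. Oncostatin M and interleukin-31 both use the chain encoded by Osmr, and in skin the whole group is known for its part in allergic inflammation, barrier impairment and itch.

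Signals are given on a log2 scale, and a signal was read as low where it lay below the median of its own array, which ran from 4.07 to 4.22. Of the 18 member probe sets, 13 lay above the median on at least 2 arrays, 6 on all 8 arrays and 5 on none. Correlations between arrays ran from 0.965 to 0.986 within groups and from 0.920 to 0.987 between groups. The mean log2 signal of 7 bacterial spike-in probe sets was 11.35 and 12.01 on the sham arrays, 11.09, 9.67 and 11.21 on the DNCB arrays, and 11.26, 10.36 and 10.30 on the DNCB+HY209 arrays, so it was lower on some treated arrays. The defining keratinocyte markers lay above the median on all 8 arrays for 8 of 8 measured genes. Whether each array is a different animal is not in the labels, and p-values therefore measure only the spread between these samples. In whole skin, fewer cells of a type and less RNA per cell cannot be told apart.

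The promoters of 4 members are printed to show where the recognition letters of STAT6 do and do not occur beside a receptor pair and a response gene described below. Each is the 250 bases before the transcript start, read from RefSeq sequences of the build GRCm38.p6, 5′ to 3′ on the gene's own strand. Retnla lies at chr16:48842609-48844461 and Il4 at chr11:53612460-53618665, Il4ra at chr7:125552271-125579474 and Il13ra1 at chrX:36112108-36171262. Capitals mark the match to the STAT6 motif, which is TTC, any 4 bases and then GAA.
Retnla, chr16:48842359-48842608, plus strand: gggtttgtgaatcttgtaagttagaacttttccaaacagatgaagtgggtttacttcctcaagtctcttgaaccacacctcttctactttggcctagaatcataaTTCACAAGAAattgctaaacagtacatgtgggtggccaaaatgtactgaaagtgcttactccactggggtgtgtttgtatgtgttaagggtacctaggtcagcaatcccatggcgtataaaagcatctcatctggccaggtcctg
Il4, chr11:53618666-53618915, minus strand: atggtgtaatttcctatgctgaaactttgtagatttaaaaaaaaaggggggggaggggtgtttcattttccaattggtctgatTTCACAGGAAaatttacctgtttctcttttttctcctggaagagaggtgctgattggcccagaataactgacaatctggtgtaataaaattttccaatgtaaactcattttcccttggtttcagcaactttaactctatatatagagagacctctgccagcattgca
Il4ra, chr7:125552021-125552270, plus strand: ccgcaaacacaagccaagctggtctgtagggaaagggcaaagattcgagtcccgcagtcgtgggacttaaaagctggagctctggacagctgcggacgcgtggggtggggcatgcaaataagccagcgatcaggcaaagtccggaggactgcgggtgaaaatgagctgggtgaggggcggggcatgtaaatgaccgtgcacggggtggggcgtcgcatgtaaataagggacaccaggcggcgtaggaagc
Il13ra1, chrX:36111858-36112107, plus strand: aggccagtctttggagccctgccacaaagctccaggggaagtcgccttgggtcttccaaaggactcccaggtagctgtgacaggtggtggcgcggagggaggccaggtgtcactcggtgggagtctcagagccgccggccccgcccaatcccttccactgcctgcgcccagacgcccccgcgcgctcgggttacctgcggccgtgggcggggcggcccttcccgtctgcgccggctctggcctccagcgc
Retnla held 1 STAT6 match, at position -145 from the start, and Il4 held 1 at position -167. A window before another Il4 start, at chr11:53617339-53617588, held none of the 3 motifs, and no Tslp window was used here. The windows of Il4ra and Il13ra1 held no match to this motif, to the STAT motif (TTC, any 3 bases, GAA) or to the GATA motif TGATAA, searched on both strands. The Il7r window held 1 STAT match, and those of Il13, Il13ra2, Il2rg and Osmr held none of the 3 motifs. Among all 32851 promoter windows of the same length, 5.85% held the STAT6 motif, 7.02% the STAT motif and 7.94% the GATA motif. A match describes letters in a window and shows neither binding nor use.

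DNCB skin was compared with sham skin first, to ask what the sensitizer did to this axis. On the brightest probe set of each gene, Il13ra1, Tslp, Il4ra, Osmr and Il7r had higher signals on every DNCB array than on either sham array. The differences of Osmr and Il7r were smaller, and Retnla had a lower signal on every DNCB array. The transcripts of Il4 and Il13 themselves stayed below the array median throughout. None of the 18 member probe sets passed limma at a Benjamini-Hochberg adjusted p of 0.05 over all 45037 probe sets tested, where 0.442% of all probe sets passed. At an unadjusted p of 0.05 the count was 6 of 18, with 5 higher and 1 lower, against 13.2% of all probe sets. The arrays of the groups did not overlap for 10 probe sets that were higher and 1 that was lower, against 14.2% and 16.3% of all probe sets. Il13ra1, Il4ra and Il7r are each counted more than once among the 10, and Il13ra1 also among the 5, so these probe sets are not independent. The 10 include an Il13ra1 probe set below the median on all arrays, with a difference of 0.12. The median log2 difference over the 18 was 0.46, against -0.03 over all probe sets.

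Il4, the cytokine that defines the T helper 2 response, had log2 signals of 2.75 and 2.98 on the sham arrays, 3.15, 2.70 and 2.81 on the DNCB arrays and 2.70, 2.85 and 2.89 on the DNCB+HY209 arrays. Il13, which acts on keratinocytes and fibroblasts through IL-13Ra1, had 2.88 and 3.08 in sham skin, 2.93, 2.72 and 2.81 in DNCB skin and 3.12, 2.93 and 2.82 in DNCB+HY209 skin. For both cytokines the 3 groups overlapped, and all 8 arrays lay below the median of the array, so no change could be detected at this signal. The difference between DNCB and sham was 0.02 for Il4 (95% interval -0.34 to 0.39) and -0.16 for Il13 (-0.49 to 0.17).

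Tslp had log2 signals of 3.59 and 3.13 on the sham arrays, both below the array median. It had 5.82, 6.40 and 5.31 on the DNCB arrays and 4.01, 5.24 and 6.80 on the DNCB+HY209 arrays. All DNCB arrays stood above both sham arrays, while the DNCB+HY209 arrays spanned nearly the whole range from sham to above the highest DNCB array. The means were 3.36 ± 0.33 (SD, n = 2), 5.84 ± 0.54 (n = 3) and 5.35 ± 1.40 (n = 3). The log2 difference between DNCB and sham was 2.48 with a standard error (SE) of 0.64, an approximate fold of 5.60 since sham lay near background, and limma's adjusted p was 0.157. With the spike-in signal added as a covariate the difference was 1.45, with adjusted p = 0.690.

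**Figure D1:**
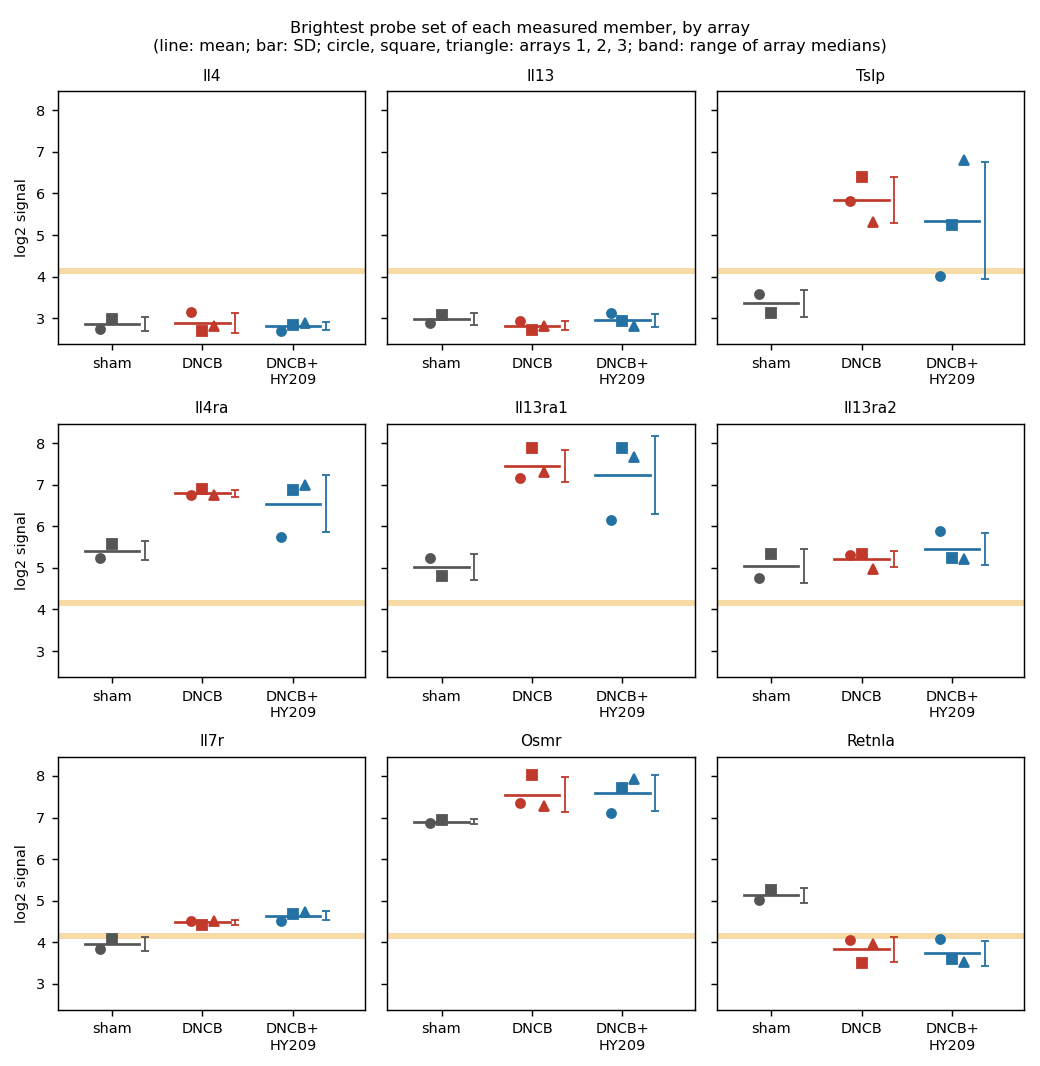
Log2 signal of the brightest probe set of each of the 9 measured members by array in skin of the 2 sham, 3 DNCB and 3 DNCB+HY209 samples, with the mean (line), SD (bar) and the range of array medians (band, 4.07 to 4.22). Il13ra1, Tslp, Il4ra and, by less, Osmr and Il7r stand higher on the DNCB arrays than on the sham arrays and Retnla lower. Il4 and Il13 lie below the band on all arrays.

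Il4ra encodes the chain shared by the receptors of interleukin-4 and interleukin-13. Its brightest probe set had log2 signals of 5.25 and 5.57 in sham skin, 6.75, 6.89 and 6.74 in DNCB skin and 5.75, 6.87 and 6.99 in DNCB+HY209 skin. The DNCB arrays lay close together and above both sham arrays, and DNCB+HY209 array 1 lay just above sham while the other two matched DNCB. The means were 5.41 ± 0.23, 6.79 ± 0.083 and 6.54 ± 0.69, and the difference between DNCB and sham was 1.38 (SE 0.35, fold 2.61, limma's adjusted p = 0.155). With the spike-in signal added as a covariate this difference was 1.04, with limma's adjusted p = 0.630. The other Il4ra probe sets gave 0.63 and -0.23 without the covariate, so probe sets of the gene disagreed in direction.

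Il13ra1 encodes the chain that pairs with IL-4Ra to form the receptor of keratinocytes and fibroblasts. Its brightest probe set had log2 signals of 5.24 and 4.80 in sham skin, 7.16, 7.89 and 7.30 in DNCB skin and 6.16, 7.89 and 7.66 in DNCB+HY209 skin. On this probe set every array of the treated groups lay above both sham arrays, with DNCB+HY209 array 1 lowest of the 6. The means were 5.02 ± 0.31, 7.45 ± 0.39 and 7.24 ± 0.94. The difference between DNCB and sham was 2.43 (SE 0.47, 95% interval 1.39 to 3.47, fold 5.39) with limma's adjusted p = 0.0573, above the threshold. With the spike-in signal added as a covariate it was 1.63, with adjusted p = 0.278. The other 4 probe sets gave 1.59, 1.45, 1.09 and 0.12, the last from a probe set below the median on all arrays, so all 5 had a positive difference. In each of those other 4, however, DNCB+HY209 array 1 lay below both sham arrays. The Il13ra1 probe sets share 1 transcript pool and are not independent.

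Il13ra2, a decoy receptor that binds interleukin-13, had log2 signals of 4.76 and 5.33 in sham skin, 5.32, 5.32 and 4.98 in DNCB skin and 5.90, 5.24 and 5.22 in DNCB+HY209 skin. The groups overlapped, and the difference between DNCB and sham was 0.16 (95% interval -0.47 to 0.80).

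Il7r, the chain that TSLP and interleukin-7 share, had log2 signals of 3.84 and 4.09 in sham skin, 4.52, 4.41 and 4.52 in DNCB skin and 4.52, 4.67 and 4.72 in DNCB+HY209 skin. The treated arrays lay above the sham arrays by a small margin, close to the array median. The difference between DNCB and sham was 0.52 (SE 0.19, limma's adjusted p = 0.313), and the other probe set gave 0.40. Osmr, the chain of the receptors of oncostatin M and interleukin-31, had 6.86 and 6.94 in sham skin, 7.36, 8.03 and 7.27 in DNCB skin and 7.10, 7.71 and 7.94 in DNCB+HY209 skin. No treated array overlapped sham, and the difference between DNCB and sham was 0.65 (SE 0.32, limma's adjusted p = 0.411), which was 0.14 with the spike-in signal added as a covariate, 0.37 after quantile normalization and 0.41 without DNCB array 2. The other Osmr probe sets lay below the median on all arrays and gave -0.16 and -0.13.

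**Figure D2:**
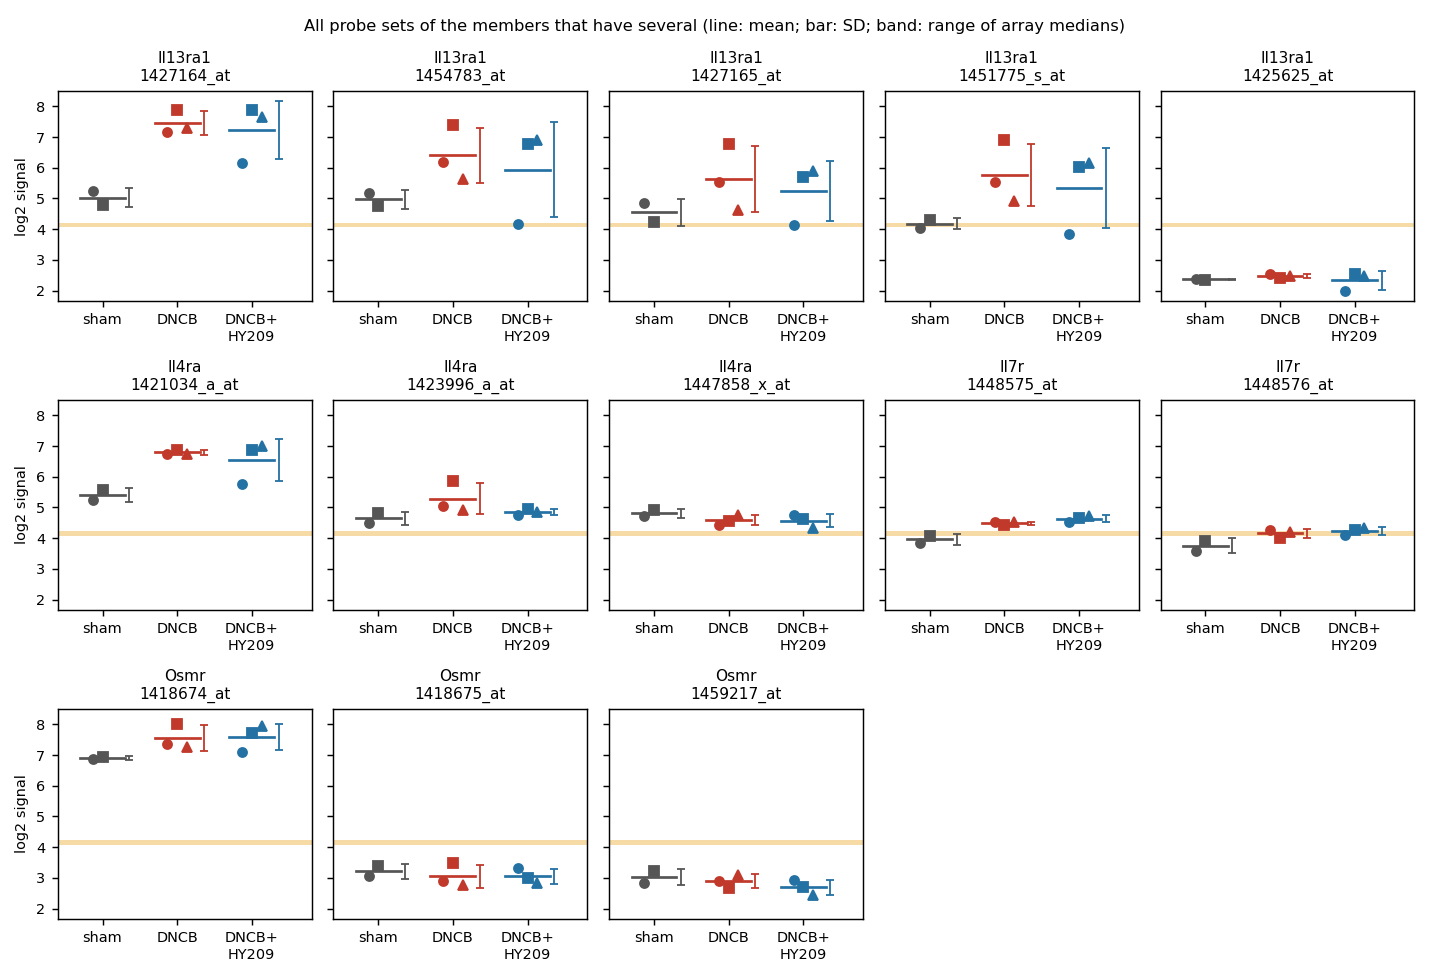
Log2 signal of all probe sets of the members that have several (Il13ra1, Il4ra, Il7r and Osmr) by array, with the mean, SD and range of array medians. The brightest probe set of each gene separates the DNCB arrays from sham, while 1 Il4ra probe set shows a difference of -0.23.

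Retnla encodes RELM alpha, a secreted protein that interleukin-4 and interleukin-13 induce in macrophages through STAT6. It had log2 signals of 5.01 and 5.26 in sham skin, 4.06, 3.49 and 3.95 in DNCB skin and 4.08, 3.61 and 3.52 in DNCB+HY209 skin. Both sham arrays lay above the array median and all 6 treated arrays below it, with no overlap, so a fold is approximate. The means were 5.13 ± 0.18, 3.83 ± 0.30 and 3.74 ± 0.30, and the difference between DNCB and sham was -1.30 (SE 0.25, 95% interval -1.85 to -0.75), with limma's adjusted p = 0.0554. The sign is opposite to that of Il13ra1 and Il4ra. With the spike-in signal added as a covariate the difference was -0.89, with adjusted p = 0.202.

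In a fit with 1 probe set per gene, among 12420 genes above the median on at least 2 arrays, Il13ra1 (adjusted p = 0.0457) rose and Retnla (adjusted p = 0.0414) fell in DNCB skin against sham, with differences of 2.43 and -1.30. They were the 2 called of the 7 member genes that passed the filter, against 1.83% of the genes tested. Retnla passed the filter only through the 2 sham arrays, the group where it was high, so its call there is not separate support. Over all 45037 probe sets limma's adjusted p was 0.0554 for Retnla and 0.0573 for Il13ra1. Without DNCB+HY209 array 1, 4 members were called in DNCB against sham: Il4ra (adjusted p = 0.0294), Il13ra1 (0.00532), Retnla (0.0336) and Tslp (0.0405), where 398 or 0.884% of all probe sets passed, against 199 with all arrays. That array is in neither group, so their differences were those given above. Without DNCB+HY209 array 3, Tslp alone was called (0.0410), where 0.411% of all probe sets passed.

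The levels of several marker lists also differed between the groups. The mean log2 signal of 12 macrophage and monocyte markers was 5.36 and 5.61 on the sham arrays, 6.56, 6.82 and 5.70 on the DNCB arrays and 5.83, 5.48 and 6.17 on the DNCB+HY209 arrays. In limma 0 of its 18 probe sets passed the adjusted threshold for DNCB against sham. At an unadjusted p of 0.05, 11 passed, all higher, against 13.2% of all probe sets. The mean log2 signal of 7 endothelial markers was 4.93 and 4.72 in sham skin against 6.41, 6.53 and 5.83 in DNCB skin, and that of 12 hair follicle markers was 8.68 and 6.90 against 5.17, 5.12 and 6.87. The mean log2 signal of 5 adipocyte markers was 6.47 and 5.76 in sham skin, 5.69, 5.21 and 4.38 in DNCB skin and 5.18, 4.37 and 4.51 in DNCB+HY209 skin, a mean lower in both treated groups with no overlap. In limma 0 of its 8 probe sets passed the adjusted threshold against sham. At an unadjusted p of 0.05, 2 passed for DNCB and 6 for DNCB+HY209, all lower, against 13.2% and 16.5% of all probe sets. The 5 genes did not all go the same way. By brightest probe set, 3 were lower and 1 higher without overlap in DNCB against sham, against 16.3% and 14.2% of all probe sets. In DNCB+HY209 against sham 4 were lower, against 20.3%. The part of the cell mixture in the members' differences was not tested. The Gapdh 3′ minus 5′ log2 difference, a measure of RNA integrity, was 2.16 and 1.49 in sham skin against 1.48, 1.07 and 2.88 in DNCB skin. With it as a covariate Il13ra1 differed by 2.43 and Retnla by -1.30 (adjusted p = 0.0393 for each), where 1.08% of all probe sets passed. T cell markers, whose list holds 10 measured genes, had a mean log2 signal of 4.20 and 4.31 in sham skin and 4.38, 4.34 and 4.32 in DNCB skin. Mast cell markers had a mean log2 signal of 3.76 and 3.61 in sham skin against 3.76 and 3.71 on DNCB arrays 1 and 3 and a higher one on DNCB array 2. Of the 8 genes, 2 (Fcer1a and Ms4a2) lay below the median on all 8 arrays. By brightest probe set, 2 (Cpa3 and Tpsb2) were higher and 0 lower without overlap in DNCB against sham, against 14.2% and 16.3% of all probe sets. Cpa3 had 4.06 and 3.98 in sham skin and 4.36, 4.16 and 4.34 in DNCB skin, near the array median. The 6 measured basophil and eosinophil markers lay below the median on all 8 arrays.

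DNCB+HY209 skin was compared with DNCB skin to ask what the gel did. No probe set passed limma's adjusted p of 0.05, which is 0% of the 45037 tested, and the member count was 0 of 18. At an unadjusted p of 0.05, 0 members passed, against 1.52% of all probe sets. The arrays of the groups overlapped for all 18 member probe sets, where 2.56% of all probe sets were higher and 2.81% lower without overlap. The log2 difference was -0.50 for Tslp (95% interval -1.76 to 0.77), -0.22 for Il13ra1 (-1.14 to 0.71) and -0.25 for Il4ra (-0.95 to 0.44). It was 0.15 for Il7r (-0.23 to 0.54), 0.03 for Osmr (-0.61 to 0.67) and 0.25 for Il13ra2 (-0.32 to 0.81). For Retnla it was -0.10 (-0.59 to 0.39), for Il4 -0.08 (-0.40 to 0.25) and for Il13 0.14 (-0.16 to 0.43). The interval of Tslp reaches down to -1.76, and a p that misses the threshold does not show that the groups act alike.

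DNCB+HY209 array 1 was the lowest of its group in Tslp, Il4ra, Il13ra1, Osmr, Il7r and Il4, and the highest in Retnla, Il13ra2 and Il13. Its keratinocyte list level was 10.2, against 11.4 and 11.8 on the other arrays of the group, its hair follicle level was 7.61 against 5.67 and 5.59, and its spike-in level was 11.26 against 10.36 and 10.30. Without that array the differences from DNCB became 0.18 for Tslp, 0.32 for Il13ra1 and 0.14 for Il4ra, with the sign turned. The part of the cell mixture was not tested. With all 8 arrays and the spike-in signal added as a covariate, the differences were -0.51 for Tslp, -0.23 for Il13ra1 and -0.26 for Il4ra.

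**Figure D3:**
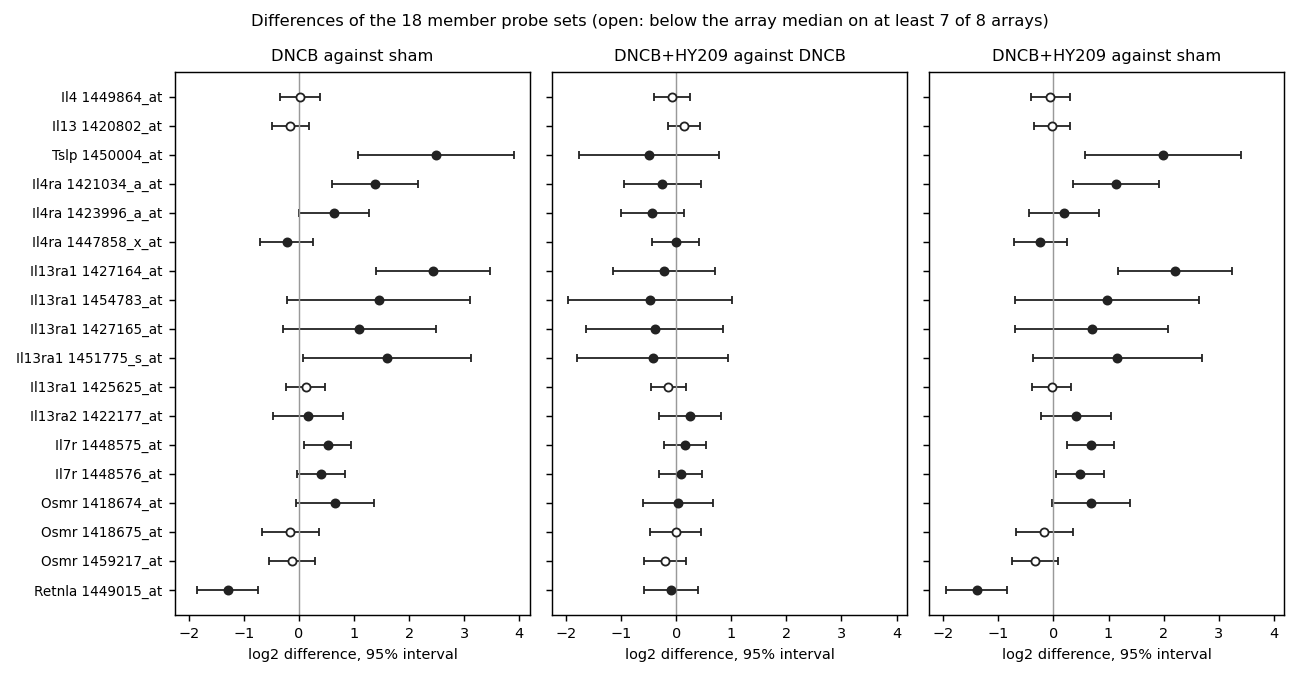
Log2 differences of the 18 member probe sets with 95% intervals for DNCB against sham, DNCB+HY209 against DNCB and DNCB+HY209 against sham, open symbols being probe sets below the array median on at least 7 of 8 arrays. Il13ra1 (2.43) and Tslp (2.48) lie farthest to the right and Retnla (-1.30) farthest to the left against sham, and intervals in the middle panel all include 0.

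DNCB+HY209 skin was last compared with sham skin, to ask how far treated skin stood from skin without DNCB; it shares its sham arrays with the first comparison. In limma 0 of 18 member probe sets passed the adjusted threshold, against 0.155% of all, and 6 of 18 had an unadjusted p under 0.05 (5 higher, 1 lower), against 16.5%. Without overlap, 6 were higher and 1 lower, against 17.4% and 20.3% of all probe sets. Il7r is counted more than once among the higher ones in both counts. The difference was 2.21 for Il13ra1 (SE 0.47, adjusted p = 0.118), 1.99 for Tslp (0.212 adjusted), 1.13 for Il4ra (0.203 adjusted) and 0.67 for Il7r (0.188 adjusted). The other Il13ra1 probe sets gave 1.16, 0.97, 0.70 and -0.03, each with overlap between the groups. The other Il4ra probe sets gave 0.20 and -0.24, also with overlap, so probe sets of that gene disagreed in direction. Osmr gave 0.68 (0.316 adjusted), Il13ra2 0.41, Il4 -0.05 and Il13 -0.02. Retnla gave -1.40 (0.0676 adjusted). Without DNCB+HY209 array 1, Il4ra (0.0346), Il13ra1 (0.0069), Retnla (0.0267) and Tslp (0.0471) were called, where 351 or 0.779% of all probe sets passed, against 70 with all arrays. With DNCB array 2 left out Retnla was called (0.0449), where 124 or 0.275% passed. With the spike-in signal as covariate, this comparison gave 1.40 for Il13ra1, 0.93 for Tslp and 0.16 for Osmr. Without DNCB+HY209 array 3 the Tslp difference was 1.26. After quantile normalization the Osmr difference was 0.37. From lowest to highest mean signal, the order was sham, DNCB+HY209 and DNCB in Tslp, Il4ra and Il13ra1, but the arrays of DNCB and DNCB+HY209 overlapped in every measured member.

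The other genes of the pathway were counted from fixed lists, leaving out the members. Of all probe sets, 13.2% had an unadjusted p under 0.05 in limma in DNCB against sham. The share was 16.5% in DNCB+HY209 against sham and 1.52% in DNCB+HY209 against DNCB. Of 7 further type 2 cytokines, 0 passed limma's adjusted threshold in any comparison (1 of 7 probe sets had an unadjusted p under 0.05 in DNCB against sham), and 6 lay below the median on all arrays, among them Il5, Il25 and Il31. Il33, an alarmin of keratinocytes, had log2 signals of 6.25 and 6.44 in sham skin and 8.78, 8.78 and 8.07 in DNCB skin, a difference of 2.20 (SE 0.55, limma's adjusted p = 0.144). In DNCB+HY209 skin it had 6.03, 8.37 and 7.56, spread across both other groups, and its difference from DNCB was -1.22 (unadjusted p = 0.031, limma's adjusted p = 1.0), the 1 of 7 probe sets with an unadjusted p under 0.05 there. Of the 8 other type 2 receptors measured, 0 passed limma's adjusted threshold, and 5 of 10 probe sets had an unadjusted p under 0.05 in DNCB against sham, 3 of them higher. Csf2rb, the signalling chain shared by receptors of interleukin-3, interleukin-5 and GM-CSF, differed by 2.20 between DNCB and sham (SE 0.48, adjusted p = 0.0959), and Csf2rb2 by 1.00 (adjusted p = 0.188). In DNCB+HY209 skin against sham Csf2rb differed by 1.65 (adjusted p = 0.191) and Il31ra, the interleukin-31 chain that pairs with OSMR, by -1.23 (adjusted p = 0.203). The Il31ra difference was -1.88 without sham array 1, -0.58 without sham array 2 and -0.69 with the spike-in covariate. With that covariate Csf2rb differed by 1.34 in DNCB and by 0.77 in DNCB+HY209 against sham, and Csf2rb2 by 0.55 in DNCB.

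Of 9 genes of the common gamma chain family, 0 passed in limma and 0 of 14 probe sets had an unadjusted p under 0.05 against sham, and Il15ra, the receptor chain of interleukin-15, differed by 0.57 between DNCB and sham. The oncostatin M and gp130 family had 20 probe sets over 10 measured genes. At an unadjusted p of 0.05 in limma, 7 passed in DNCB against sham, 4 higher and 3 lower, against 13.2% of all probe sets. In DNCB+HY209 against sham 6 passed, 2 higher and 4 lower, against 16.5%. At the adjusted threshold 1 probe set passed, higher in each comparison with sham. It belonged to Clcf1, a cytokine of the gp130 family, with log2 signals of 2.59 and 3.60 in sham skin, 6.18, 7.58 and 6.65 in DNCB skin and 5.94, 7.89 and 6.74 in DNCB+HY209 skin. The sham signals lay below the array median, and the difference was 3.71 in DNCB (SE 0.57, adjusted p = 0.0268) and 3.76 in DNCB+HY209 (adjusted p = 0.0390) against sham. Of 18 alternatives, the call held in 12 for DNCB and in 8 for DNCB+HY209. The brighter Clcf1 probe set gave 1.92 and 1.93 (adjusted p = 0.144 and 0.156), and Il6st, the gp130 chain, gave 1.34 in DNCB against sham. With the spike-in covariate the brighter Clcf1 probe set gave 1.05 in each comparison with sham and Il6st gave 0.76, and Il15ra gave -0.0063. Without DNCB array 2 Il15ra gave 0.32.

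Of 14 genes of STAT6 and type 2 signalling, 0 passed limma's adjusted threshold. In DNCB against sham 10 of 27 probe sets had an unadjusted p under 0.05, 8 higher and 2 lower, against 13.2% of all probe sets. Gata3, the transcription factor of T helper 2 cells that is also expressed in epidermis and hair follicles, had log2 signals of 7.82 and 7.95 in sham skin and 5.60, 6.65 and 6.91 in DNCB skin, a difference of -1.49 (SE 0.35, adjusted p = 0.124). Jak2 differed by 0.88 (adjusted p = 0.246), or by 0.53 with the spike-in covariate. Of 15 interleukin-4 and interleukin-13 response genes, 0 passed limma's adjusted threshold and 8 lay below the median on all arrays, among them Ccl17, Ccl22 and Chil3. In DNCB against sham 3 of 16 probe sets had an unadjusted p under 0.05, all lower, close to the share of 13.2% over all probe sets. Clec10a and Ccl24, whose signals lay near or below the array median in treated skin, differed by -0.78 and -0.50 in DNCB against sham. In DNCB+HY209 against DNCB, 0 probe sets of these lists passed limma's adjusted threshold.

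**Figure D4:**
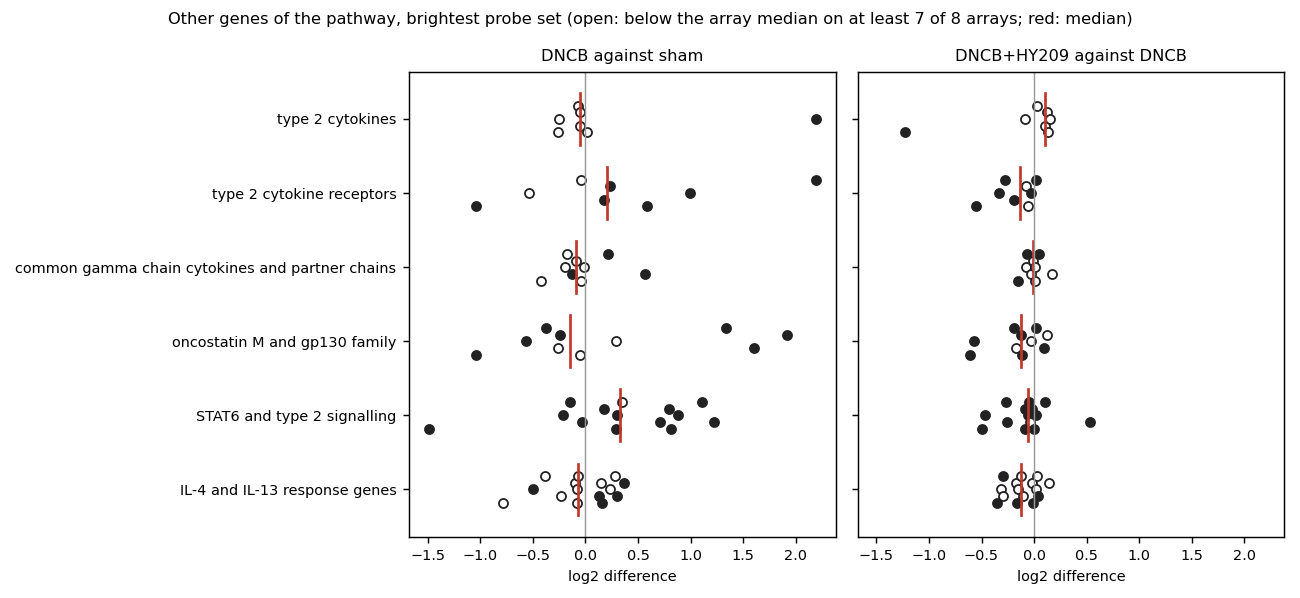
Log2 difference of the brightest probe set of each other gene of the 6 pathway lists, for DNCB against sham (left) and DNCB+HY209 against DNCB (right), with open symbols for probe sets below the array median on at least 7 of 8 arrays and the list median as a red line. The farthest points on the left panel are Il33 and Csf2rb (2.20 each) to the right and Gata3 (-1.49) to the left.

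Likeness was described by Pearson's r over the 8 arrays, among 19242 probe sets above the array median on at least 4 arrays, with no test because arrays share groups. The closest to Tslp were Ablim1 (0.993) and Slc31a2 (0.988), and to Il4ra were Tcim (0.990) and Hif1a (0.989). The closest to Il13ra1 were Ctsc (0.993) and Defb1 (0.992), and to Osmr were Arhgap35 (0.995) and Tnrc6a (0.995). Il7r was closest to Lims1 (0.980) and Cdk16 (0.977), and Il13ra2 to Vldlr (0.957) and Speg (0.933).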

How the data were processed

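Per the labels' protocols, RNA of frozen skin was amplified from the 3′ end, biotin-labelled and hybridised. The protocol names a 430A array, but 45101 probe sets were in the table. The authors deposited log2 signals; the log2 scale was read from the range. Affymetrix Expression Console and MAS5 are named, without a version, per the submitters' processing notes. Scaling between arrays was not given in the sources used here. Per the platform annotation, 34945 probe sets had 1 symbol, 932 several and 9160 were not listed.

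Control probe sets (64) were left out. The other 45037 were tested, unfiltered, with limma 3.58.1 in R 4.3.3 (lmFit, eBayes with trend, all 8 arrays in 1 fit, two-sided, Benjamini-Hochberg, threshold 0.05). The test was checked on simulated data. A member is described by its probe set of highest mean. Other list genes are named where they passed, up to 4 per list, or otherwise as the 2 with the largest moderated t and no overlap between groups. List counts are over probe sets. List levels are mean log2 signals over genes, members included. Marker lists were counted by the same rule: among them Krt15 fell and Col6a3, Cdh5 and Myh2 rose in DNCB against sham, Myh2 also in DNCB+HY209 against sham. The members and lists were chosen with earlier results of these data known.

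Alternatives were quantile normalization, median centring, 2 filters, the variance model, weights per array, a fit of the compared groups alone, spike-in and Gapdh covariates, the replicate number as a block, and each array left out. Same-numbered arrays of different groups correlated in their deviations from -0.58 to 0.25, so the numbers were not taken as pairs. Figures were drawn with Python 3.11.15. The number of arrays limits the precision.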

Additional observations from a re-analysis of the deposited data

How the results depend on the processing

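Against sham, the differences of Il13ra1, Tslp, Il4ra, Il7r, Osmr and Retnla kept their direction under all 19 alternatives, but calls did not. For Il13ra1 in DNCB the difference ran from 1.63 to 2.65 and was called in 5 alternatives, and for Retnla from -1.42 to -0.89, called in 4. The count for DNCB against sham, 199, was 487 with the Gapdh covariate, 316 after quantile normalization, 39 with the replicate block and 36 with the spike-in covariate, and 30 to 398 with 1 array left out. For DNCB+HY209 against sham, 70 became 2996 with array weights, 129 after quantile normalization, 45 without the trend, 41 after centring, 31 with only the 2 groups, 12 with the replicate block, 9 with the spike-in covariate and 8 to 351 with 1 array left out. For DNCB+HY209 against DNCB it was 0 in all. Member calls in DNCB against sham were 2 (Il13ra1 with Retnla) in each of 3 fits. These were the gene-level fit, where 1.83% of all genes passed, the Gapdh covariate, where 1.08% of all probe sets passed, and quantile normalization, where 316 of 45037 passed. Retnla passed the filter of the gene-level fit only through the sham arrays, where it was high, so its call there is not separate support. With only the 2 groups compared they were 2 (Il13ra1 with Tslp), in a fit whose total is not given here. With 1 array left out they ran from 0 to 4. In DNCB+HY209 against sham member calls were 5 with array weights, where 2996 of 45037 probe sets passed. They were 1 after quantile normalization, where 129 passed, and 0 to 4 with 1 array left out. The block changed no member call. Signs turned where differences were small. Il13 gave 0.0063 in DNCB against sham with the spike-in covariate, and in DNCB+HY209 against sham 0.051 after centring, 0.12 after quantile normalization, 0.014 with the block and 0.15 with the spike-in covariate (-0.13 to 0.080 with 1 array left out). Il4 in the latter comparison gave 0.020, 0.086 and 0.048 after centring, quantile normalization and with the spike-in covariate. Against DNCB, DNCB+HY209 with array weights gave 0.44 for Il13ra1 and 0.051 for Il4ra, and Osmr gave -0.12 with the Gapdh covariate. Il15ra gave -0.0063 in DNCB against sham with the spike-in covariate. With 1 array left out, Il13ra2 ran from -0.13 to 0.45 and Il4 from -0.11 to 0.14 in DNCB against sham, and Il4 from -0.17 to 0.062 in DNCB+HY209 against sham. In DNCB+HY209 against DNCB they ran from -1.22 to 0.18 for Tslp, -0.54 to 0.32 for Il13ra1, -0.48 to 0.14 for Il4ra, -0.27 to 0.014 for Retnla, -0.15 to 0.27 for Osmr and -0.17 to 0.054 for Il4. The cause of these changes was not tested. Signals below the array median limit Il4, Il13 and, in treated skin, Retnla.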
